A study of Caenorhabditis elegans with 24 samples.

Results

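The heme-responsive genes hrg-1 to hrg-7 of Caenorhabditis elegans encode proteins that take up, move or signal the state of heme, the iron-containing ring that serves as cofactor for cytochromes, catalases and globins. They are followed here through cobalt treatment of wild-type (WT) worms and of worms without a working pqm-1 gene, which encodes a zinc-finger transcription factor active in the intestine. The 7 genes were taken by name, and they were chosen because earlier results of these same data showed a pqm-1-dependent rise of the family with CoCl2, so that rise is described below and not tested. All 7 were on the array, each with 1 probe, among 25616 genes and unnamed probes in all, and all 7 passed the filter on dim probes at both times (22067 genes tested at 6 h and 23058 at 20 h).

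Whole worms of the pqm-1(ok485) loss-of-function strain and of the N2 wild-type strain, synchronized and early in day 1 of adulthood, were kept with 5 mM CoCl2 or left untreated for 6 or 20 h. CoCl2 is a salt used to mimic hypoxia. RNA from each pair of conditions was hybridized together on 2-colour Agilent arrays, and each of 4 comparisons at each time had 3 arrays, described in the methods as biological replicates, for 24 arrays in all. The comparisons were pqm-1 CoCl2 against pqm-1 untreated, WT CoCl2 against WT untreated, pqm-1 CoCl2 against WT CoCl2, and pqm-1 untreated against WT untreated. The 4 conditions of a time were thus shared between comparisons, and whether 1 RNA sample served on several arrays is not stated in the sources used here. The strain carries the allele in every cell and pqm-1 worms are described as slower to develop, so stage and genotype cannot be told apart in these samples. Likewise, in whole worms fewer cells of a type and less RNA per cell cannot be told apart.

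C. elegans cannot make heme and lives on heme from its food. HRG-4 at the gut-facing membrane of intestinal cells and HRG-1 on endosomes and lysosomes of the same cells bring heme into the cytosol, and HRG-5 and HRG-6 are their paralogs. MRP-5 exports heme from the intestine, and HRG-3 is a small secreted protein that carries maternal heme to embryos and other tissues. HRG-2 is a heme-binding membrane protein of the hypodermis. HRG-7 is a secreted protein of the aspartic protease family that acts in signalling between the intestine and neurons. The DBL-1 (BMP-like) pathway also has a part in that signalling. Several of these genes are known to be transcribed more strongly when heme is scarce.

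All values below are log2 ratios within an array, named first condition over second, unless said otherwise. The share of probes well above background in at least 1 channel ran between 69% and 92.1% over the 24 arrays (median 85.9%), and no spot of the 7 genes was saturated. The pqm-1 probe was lower in untreated pqm-1 than in untreated WT worms by -2.27 at 6 h (adjusted p = 1.15e-07) and -1.46 at 20 h (adjusted p = 0.000238), with all 6 arrays negative, but the same probe differed by -0.04 at 6 h and 0.19 at 20 h between the strains under CoCl2. With CoCl2 at 6 h this probe rose by 2.69 in pqm-1 worms (adjusted p = 1.65e-08) and 0.77 in WT worms (adjusted p = 0.00107). At 20 h it rose by 3.16 in pqm-1 worms (adjusted p = 4.19e-08) and 1.98 in WT worms (adjusted p = 2.97e-06). Whether the probe lies in the deleted part of the gene is not known here. Which dye held which RNA was taken from the strain and treatment fields of the labels. The source names of 11 of the 24 arrays say otherwise, and every sign below rests on the fields. The deposited ratios were turned by the same fields, so their equal direction on all 24 arrays cannot decide between fields and source names. In each comparison the source names differ from the fields on some but not all arrays. Reading by them would therefore turn arrays against replicates of the same comparison. With the fields, replicates of a comparison correlated at r = 0.678 to 0.961 over genes. Read by the source names, no member was called in any CoCl2 comparison.

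In WT worms, hrg-1, hrg-2, hrg-3, hrg-4 and hrg-7 were higher with CoCl2 at 6 h, and only hrg-1, hrg-2 and hrg-3 were so at 20 h. In pqm-1 worms no member was called higher with CoCl2 at either time, and at 6 h hrg-1, hrg-2, hrg-4, hrg-6 and hrg-7 were lower with it. The untreated pqm-1 worms at 6 h already had more of hrg-1, hrg-2, hrg-3, hrg-4 and hrg-7 transcript than untreated WT worms. The set was chosen for a pqm-1-dependent rise, so its presence in 5 of the 7 members at 6 h restates that choice. The rise was not seen for hrg-6, which was not higher with CoCl2 in WT worms. It could not be read for hrg-5, whose probe was mostly not above background.

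**Figure D1:**
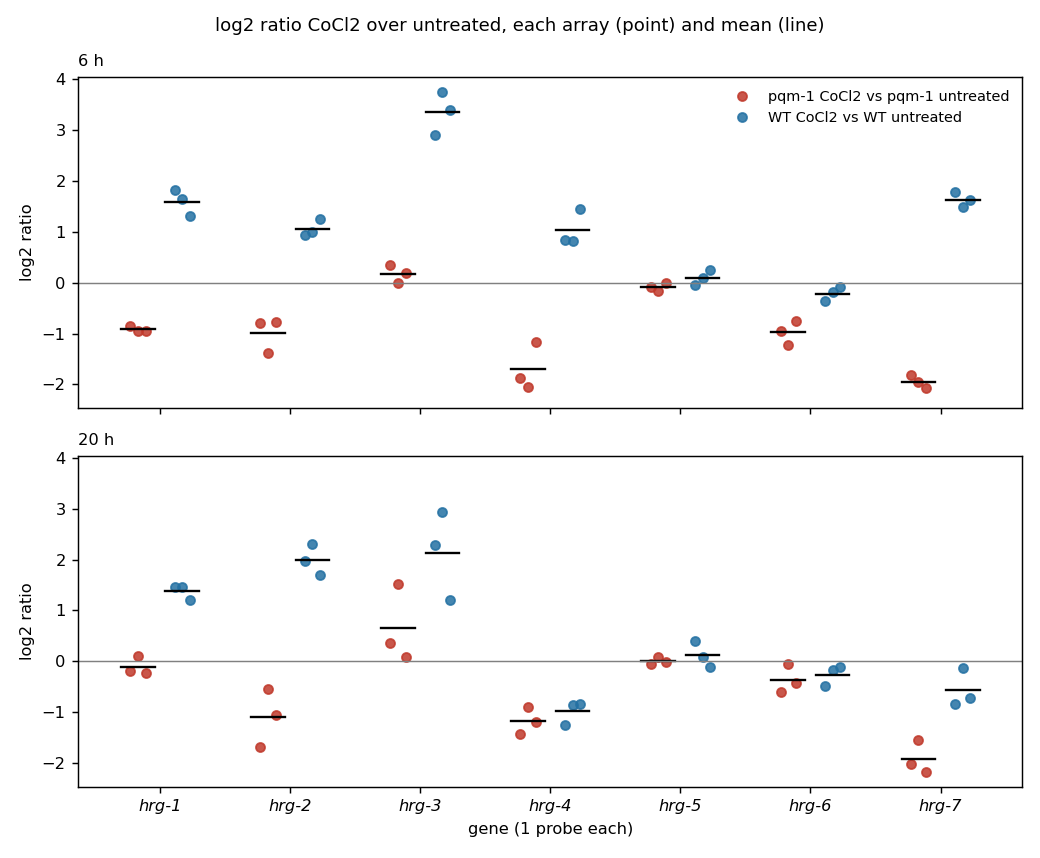
Log2 ratio of CoCl2-treated over untreated worms for hrg-1 to hrg-7 at 6 h and 20 h, with 1 point for each array and a bar at the mean of the 3 arrays, pqm-1 worms left of WT worms. At 6 h the WT arrays of hrg-1, hrg-2, hrg-3, hrg-4 and hrg-7 all lie above 0, and the pqm-1 arrays of hrg-1, hrg-2, hrg-4, hrg-6 and hrg-7 all lie below it.

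For the lysosomal heme importer hrg-1, the CoCl2 ratios at 6 h were -0.85, -0.95 and -0.94 in pqm-1 worms, against 1.82, 1.65 and 1.31 in WT worms. At 20 h they were -0.20, 0.11 and -0.23 in pqm-1 worms, against 1.47, 1.46 and 1.22 in WT worms. The strains did not overlap at either time, and the WT ratio was kept at 20 h while the pqm-1 ratio lay around 0. Between the strains, pqm-1 over WT, hrg-1 stood at -0.73, -0.74 and -1.0 in CoCl2-treated worms at 6 h, against 1.78, 1.49 and 1.47 in untreated worms. At 20 h these ratios were -1.18, -0.99 and -0.91 with CoCl2, against 0.33, 0.49 and 0.25 without. Thus pqm-1 worms had more hrg-1 transcript than WT worms when untreated and less when treated, on every array.

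The other importer with a known role, hrg-4, began alike and then parted from hrg-1. Its CoCl2 ratios at 6 h were -1.88, -2.05 and -1.17 in pqm-1 worms, against 0.85, 0.81 and 1.45 in WT worms. At 20 h they were -1.42, -0.90 and -1.19 in pqm-1 worms, against -1.24, -0.86 and -0.84 in WT worms. The strains were wholly apart at 6 h and overlapped at 20 h, when hrg-4 was lower with CoCl2 in both. Between the strains at 6 h, hrg-4 was at -1.22, -1.76 and -2.0 with CoCl2, against 1.84, 1.69 and 1.42 untreated. At 20 h it was at -0.22, 0.08 and 0.06 with CoCl2, against 0.29, 0.10 and 0.49 untreated, so that the strains under CoCl2 lay on both sides of 0.

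Of the paralogs of hrg-4, hrg-6 did not follow it upward and hrg-5 was too dim to read. For hrg-6, the CoCl2 ratios at 6 h were -0.94, -1.23 and -0.75 in pqm-1 worms, against -0.37, -0.19 and -0.09 in WT worms. At 20 h they were -0.60, -0.06 and -0.43 in pqm-1 worms, against -0.49, -0.18 and -0.11 in WT worms. No array of either strain had a positive hrg-6 ratio for CoCl2, and the strains overlapped at 20 h only. The hrg-5 probe was above background in 0 to 4 of the 6 channels of a condition, so no fold is given for it, and its 24 array ratios ran between -0.16 and 0.40. In the RefSeq annotation of assembly WBcel235, hrg-5, hrg-4 and hrg-6 lie next to each other on chromosome IV, with 1 non-coding RNA gene between hrg-4 and hrg-6, whereas hrg-2, hrg-3 and hrg-7 are on V and hrg-1 is on X. Of these neighbours, the readable ones had unlike values under CoCl2 in WT worms at 6 h, with means of 1.04 for hrg-4 and -0.21 for hrg-6.

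In the hypodermal gene hrg-2, the CoCl2 ratios at 6 h were -0.80, -1.39 and -0.78 in pqm-1 worms, against 0.94, 1.00 and 1.25 in WT worms. At 20 h they were -1.69, -0.54 and -1.06 in pqm-1 worms, against 1.98, 2.31 and 1.69 in WT worms. The WT ratio of hrg-2 was larger at 20 h than at 6 h, the only member of which this was so by more than 1 SE. Between the strains at 6 h, hrg-2 was at -0.19, -0.88 and -1.23 with CoCl2, against 1.34, 1.07 and 1.66 untreated. At 20 h the ratios were -3.08, -2.64 and -2.58 with CoCl2, against 0.47, 0.79 and 0.71 untreated. The CoCl2 value at 20 h, a mean of -2.77 or 6.81-fold less transcript in pqm-1 than in WT worms, was the widest gap between the strains of any member on these values. On the scanner software's ratio it was -3.24, and the untreated value of hrg-3 at 6 h, 3.75, was wider. The markers of hypodermis and cuticle moved with hrg-2 in the untreated strains. There 6 of 9 were higher in pqm-1 worms at 6 h (median 0.95, against 10.5% of all genes). At 20 h 5 of 9 were (median 0.58, against 4.33% of all genes called in any direction). Under CoCl2 at 20 h they went the other way: 6 of 9 were higher in pqm-1 worms (median 1.19), and their summed level, on the linear normalised scale, was 57800 to 102000 over the channels of pqm-1 CoCl2 worms, against 34500 to 54800 for WT CoCl2 worms. Their part in the hrg-2 values was not tested.

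For the heme carrier hrg-3, the CoCl2 ratios at 6 h were 0.35, -0.01 and 0.18 in pqm-1 worms, against 2.90, 3.75 and 3.39 in WT worms. The WT mean of 3.35, or 10.2-fold, was the largest CoCl2 ratio of the family. At 20 h the ratios were 0.37, 1.51 and 0.09 in pqm-1 worms, against 2.28, 2.93 and 1.21 in WT worms. The spread within each strain was wide at 20 h, and the highest pqm-1 array passed the lowest WT array. Between the strains at 6 h, hrg-3 was at -0.80 and -1.43 on the 2 arrays with a usable CoCl2 spot, the spot of the third array being marked an outlier by the scanner software and left out, against 0.35, 1.34 and 0.78 untreated. At 20 h the ratios were -1.91, -1.31 and -1.63 with CoCl2, against 0.28, 0.44 and 0.19 untreated.

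The hrg-3 signal was weak in untreated WT worms at 6 h: 4 of its 6 channels there were above background, and 1 of the 3 in the comparison with untreated pqm-1 worms. An offset of 50 added in the background correction compresses the ratio of so dim a spot. On the scanner software's own ratio the WT CoCl2 mean at 6 h was 4.98 and the untreated strain mean 3.75, against 3.35 and 0.82 with the offset, so the size of the hrg-3 values at 6 h is known less well than their sign.

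For the signalling gene hrg-7 the strains lay far apart at 6 h. Its CoCl2 ratios were -1.81, -1.96 and -2.06 in pqm-1 worms, against 1.78, 1.49 and 1.62 in WT worms. At 20 h they were -2.02, -1.55 and -2.17 in pqm-1 worms, against -0.84, -0.13 and -0.72 in WT worms. The pqm-1 ratio thus stayed near -1.9 at both times, and the WT ratio was positive at 6 h and negative at 20 h. Between the strains at 6 h, hrg-7 was at -0.74, -1.29 and -1.88 with CoCl2, against 2.60, 1.84 and 2.45 untreated. At 20 h the ratios were -0.72, -0.29 and -0.82 with CoCl2, against 0.41, 0.74 and 0.97 untreated.

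**Figure D2:**
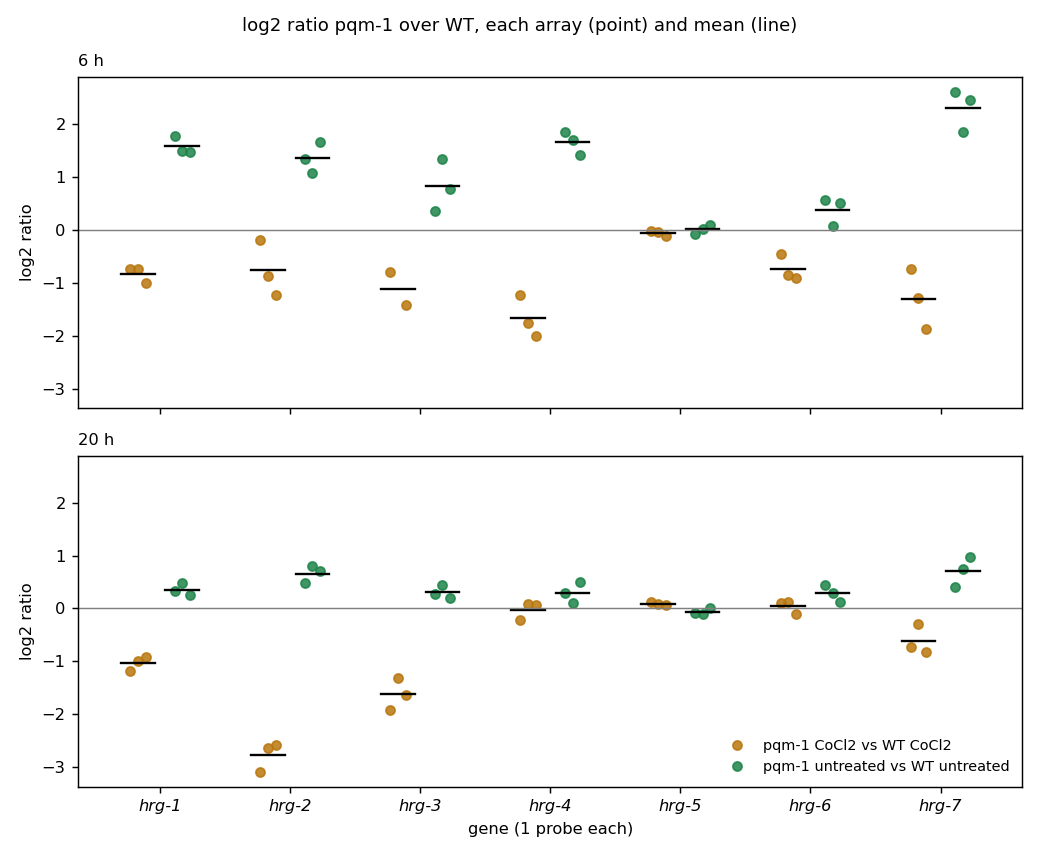
Log2 ratio of pqm-1 over WT worms for hrg-1 to hrg-7 at 6 h and 20 h, with 1 point for each array and a bar at the mean, CoCl2-treated worms left of untreated worms. At 6 h hrg-1, hrg-2, hrg-3, hrg-4 and hrg-7 lie above 0 on every untreated array and below 0 on every treated one.

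At a limma adjusted p below 0.01 over all genes, 5 of the 7 members were called lower with CoCl2 in pqm-1 worms at 6 h, in a comparison that called 4.83% of all genes lower, and 5 were called higher in WT worms, where 2.57% of all genes were called higher. Between the strains at 6 h, 6 members were called lower in pqm-1 worms under CoCl2 (5.43% of all genes), and 5 were called higher in untreated pqm-1 worms (10.5%). At 20 h, 3 members were called lower with CoCl2 in pqm-1 worms (12.4% of all genes). In WT worms at 20 h 3 were called higher (8.99%) and 1, hrg-4, lower (6.93%). Between the strains under CoCl2 at 20 h 4 were called lower in pqm-1 worms (13.6%), and between the untreated strains 0 were called in any direction (4.33%). Because the members were chosen from the CoCl2 contrasts, these counts describe the choice. The WT count at 6 h was 3 whichever 1 of its 3 arrays was left out, that of pqm-1 against WT under CoCl2 at 6 h was 4 to 5, and the strain difference at 20 h, below, was 2 to 4.

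How far the 2 strains differed in their answer to CoCl2 was taken as a difference between 2 comparisons: pqm-1 over WT with CoCl2 minus the same untreated at 6 h, and the CoCl2 ratio of pqm-1 minus that of WT worms at 20 h, the pairs that the methods use. At 6 h it was -3.60 for hrg-7 (SE 0.252), -3.31 for hrg-4 (SE 0.258), -2.41 for hrg-1 (SE 0.132), -2.12 for hrg-2 (SE 0.248), -1.93 for hrg-3 (SE 0.301), -1.12 for hrg-6 (SE 0.164) and -0.08 for hrg-5 (SE 0.0884). Set in order among the 22067 genes from the most negative, hrg-7 was 1, hrg-4 was 2, hrg-1 was 6 and hrg-2 was 12. No place is given for hrg-3, whose untreated WT spot was mostly not above background. Neighbours in this order lay within 2 combined SE of each other for hrg-7 and hrg-4, and for hrg-1 and hrg-2. The members called in this direction were 6 of 7, against 1.33% of all genes. Because the members were chosen for this contrast, their places and this count describe the choice and give it no support.

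At 20 h the difference was -3.09 for hrg-2 (SE 0.255), -1.49 for hrg-1 (SE 0.119), -1.48 for hrg-3 (SE 0.410), -1.35 for hrg-7 (SE 0.225), -0.19 for hrg-4 (SE 0.160), -0.12 for hrg-5 (SE 0.112) and -0.10 for hrg-6 (SE 0.150). The order had changed, with hrg-2 now apart from the rest and hrg-4 near 0. Here 3 members were called (hrg-1, hrg-2 and hrg-7), against 0.737% of all genes called in this direction, a count that likewise describes the choice. On the slide that held arrays of both 20 h comparisons, 2 of pqm-1 and 1 of WT worms, the differences were -3.42 for hrg-2, -1.51 for hrg-1, -1.99 for hrg-3, -1.66 for hrg-7 and -0.30 for hrg-4. At 6 h no slide held both comparisons, so that slide and comparison cannot be told apart in the 6 h differences.

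**Figure D3:**
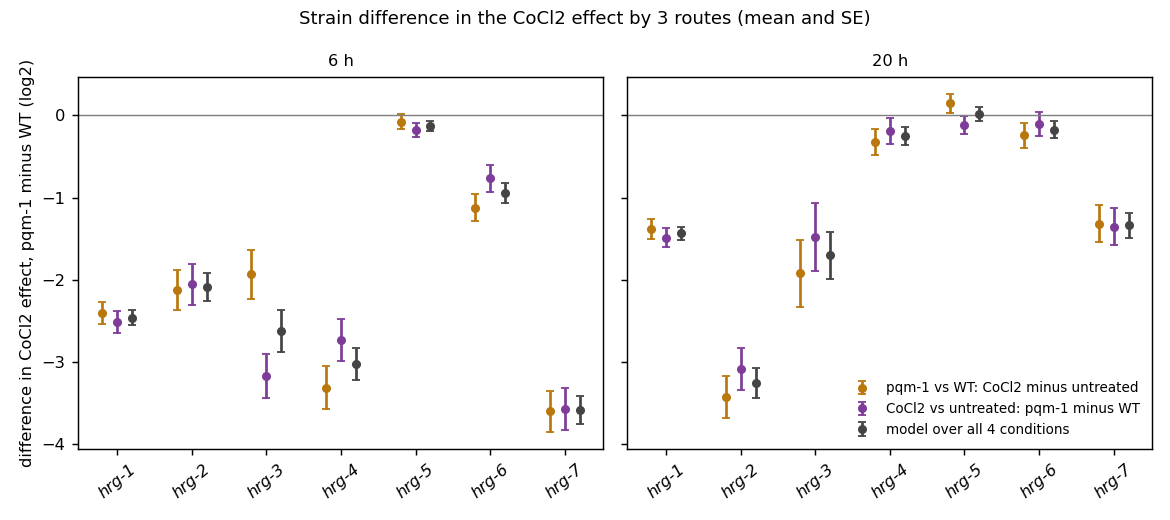
Difference between pqm-1 and WT worms in the log2 effect of CoCl2 on each member, with its SE, at 6 h and 20 h, taken from the strain comparisons, from the CoCl2 comparisons and from a model over the 4 conditions. At 6 h hrg-7 and hrg-4 reach -3.60 and -3.31 in the strain comparisons, and at 20 h hrg-2 reaches -3.09 in the CoCl2 comparisons while hrg-4 is at -0.19.

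The same difference can be had from the other pair of comparisons, which uses other arrays. At 6 h this gave -3.57 for hrg-7, -2.74 for hrg-4, -2.51 for hrg-1, -2.06 for hrg-2, -0.76 for hrg-6 and -3.17 for hrg-3. Only hrg-3 moved by more than 1, and its 2 routes around the 4 conditions failed to close by 1.24, against a median of 0.0786 over all genes in absolute value. At 20 h the other pair gave -3.43 for hrg-2, -1.38 for hrg-1, -1.92 for hrg-3, -1.32 for hrg-7 and -0.32 for hrg-4.

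The members also differed in how the CoCl2 ratio changed with time. Taken as the WT CoCl2 ratio at 20 h minus that at 6 h, the difference was -2.19 for hrg-7 (SE 0.255), -2.02 for hrg-4 (SE 0.228), -1.21 for hrg-3 (SE 0.377), -0.21 for hrg-1 (SE 0.130) and 0.93 for hrg-2 (SE 0.269). In pqm-1 worms it was 0.03 for hrg-7, 0.53 for hrg-4, 0.48 for hrg-3, 0.81 for hrg-1, -0.10 for hrg-2 and 0.61 for hrg-6. Hence hrg-4 and hrg-7 changed sign in WT worms and kept it in pqm-1 worms. On the 1 slide that held WT arrays of both times, 1 at 20 h and 3 at 6 h, the WT difference was -2.47 for hrg-7, -2.28 for hrg-4, -1.07 for hrg-3, -0.13 for hrg-1 and 0.92 for hrg-2.

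The levels behind these ratios showed that untreated WT worms themselves differed by time. On the normalised log2 scale of single channels, over 6 channels of a condition, hrg-7 averaged 14.78 in untreated pqm-1 worms at 20 h, 14.32 in untreated pqm-1 worms at 6 h, 14.16 in untreated WT worms at 20 h, 13.73 in CoCl2-treated WT worms at 6 h, 13.49 in CoCl2-treated WT worms at 20 h, 12.77 in CoCl2-treated pqm-1 worms at 20 h, 12.31 in CoCl2-treated pqm-1 worms at 6 h and 12.15 in untreated WT worms at 6 h. In that order the channel ranges of neighbours were apart only between the highest and the next, and between CoCl2-treated WT and pqm-1 worms at 20 h. The condition used as WT baseline at 6 h was thus the lowest of the 8, and the same condition at 20 h was the third highest.

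For hrg-1 the order ran from 11.85 in CoCl2-treated WT worms at 20 h, through 10.83 in untreated pqm-1 worms at 20 h, 10.76 in CoCl2-treated WT worms at 6 h, 10.73 in untreated pqm-1 worms at 6 h, 10.72 in CoCl2-treated pqm-1 worms at 20 h and 10.53 in untreated WT worms at 20 h, to 9.80 in CoCl2-treated pqm-1 worms at 6 h and 9.24 in untreated WT worms at 6 h. The 5 middle conditions overlapped neighbour by neighbour. Above them stood CoCl2-treated WT worms at 20 h, and below them, each apart from the next, the 2 lowest.

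For hrg-4 the highest mean was 9.68 in untreated pqm-1 worms at 6 h, followed by 9.64 in untreated pqm-1 and 9.39 in untreated WT worms at 20 h, 9.09 in CoCl2-treated WT worms at 6 h, 8.25 in CoCl2-treated WT worms at 20 h, 8.24 in CoCl2-treated pqm-1 worms at 20 h, 8.09 in untreated WT worms at 6 h and 7.66 in CoCl2-treated pqm-1 worms at 6 h. Every condition overlapped the next one down. For hrg-2 the highest was 10.62 in CoCl2-treated WT worms at 20 h, apart from all others. After it came 9.22 and 9.10 in untreated pqm-1 worms at 20 h and 6 h, 8.81 in untreated WT worms at 20 h, 8.78 in CoCl2-treated WT worms at 6 h, 7.94 in CoCl2-treated pqm-1 worms at 6 h, 7.85 in untreated WT worms at 6 h and 7.78 in CoCl2-treated pqm-1 worms at 20 h. Among these, only the step between 8.78 and 7.94 parted the channels of neighbours.

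For hrg-3 the highest was CoCl2-treated WT worms, with 10.07 at 20 h and 9.61 at 6 h. CoCl2-treated pqm-1 worms had 8.59 at 20 h and 7.99 at 6 h, untreated pqm-1 worms 7.92 at 20 h and 7.52 at 6 h, and untreated WT worms 7.70 at 20 h and 6.51 at 6 h. The last of these stood below all other conditions. For hrg-6 the 8 means ran only between 7.70, in CoCl2-treated pqm-1 worms at 6 h, and 8.95, in untreated pqm-1 worms at 6 h, with every neighbour overlapping.

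The times were mostly on different slides, but 1 slide held the 3 WT arrays of 6 h and 1 WT array of 20 h. On the first replicate arrays of both times, each with untreated WT RNA in the same dye, the median spot signal of untreated WT worms was 5111 at 6 h and 29886 at 20 h for hrg-7, 701 and 2422 for hrg-1, 185 and 527 for hrg-2, 51 and 271 for hrg-3, 187.5 and 719 for hrg-4, and 345 and 336 for hrg-6. These signals are single spots before normalisation, and they show the baseline of hrg-6 level and those of the other 5 higher at 20 h.

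**Figure D4:**
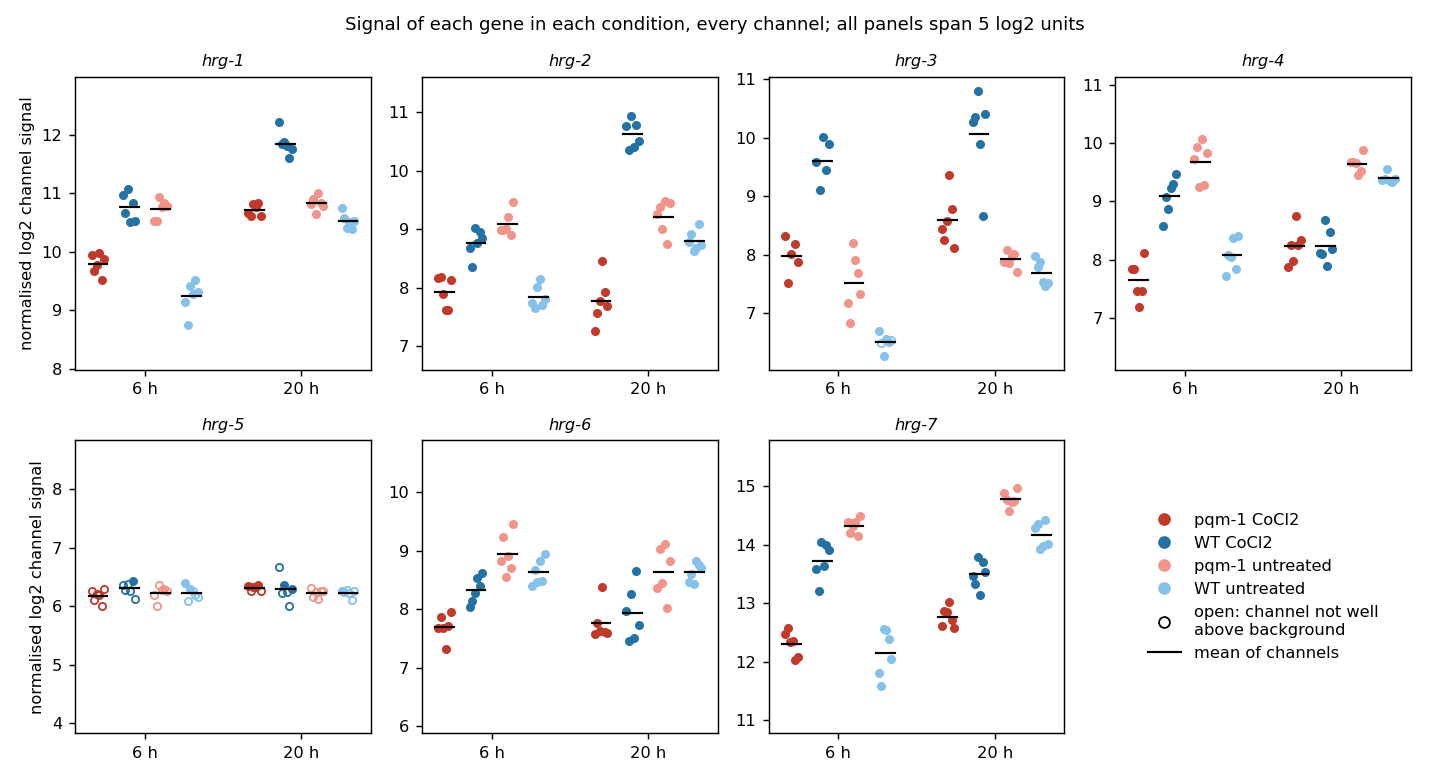
Normalised log2 channel level of each member in the 8 conditions, with 1 point for each of the channels and a bar at the mean, 6 h before 20 h. Untreated WT worms at 6 h hold the lowest mean for hrg-1 (9.24), hrg-3 (6.51) and hrg-7 (12.15).

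The untreated strains at 20 h were compared without CoCl2, but the 4 comparisons of a time share their conditions, so this ratio is tied to the CoCl2 comparisons from which the members were chosen and is given with no test. On all 3 arrays 6 of the 7 genes were higher in pqm-1 worms, by a mean of 0.71 for hrg-7 (SE 0.159), 0.66 for hrg-2 (SE 0.180), 0.36 for hrg-1 (SE 0.0844), 0.31 for hrg-3 (SE 0.290), 0.30 for hrg-4 (SE 0.113) and 0.28 for hrg-6 (SE 0.106), with -0.06 for hrg-5. At the threshold of 0.01 none was called (0 of 7 members, against 4.33% of all genes). That count depended on the fit: hrg-7 was called with replicate as a block and with a dye term, and hrg-7 and hrg-1 in a loop model of the 4 conditions. The untreated means at 6 h were larger for the 5 leading members, at 2.30 for hrg-7, 1.65 for hrg-4, 1.58 for hrg-1, 1.36 for hrg-2 and 0.82 for hrg-3.

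The untreated strains also differed in their cell markers. At 6 h all 27 major sperm protein genes were higher in pqm-1 than WT worms (median 3.34), with a summed level of 279000 to 529000 against 33800 to 56500, and 27 of 27 were higher with CoCl2 too (median 3.25). At 20 h 25 of 26 were higher with CoCl2 (median 1.89) and 24 of 26 untreated (median 2.35). Of 6 intestine markers tested, 3 were higher in untreated pqm-1 worms at 6 h (median 0.27) and none lower, and with CoCl2 5 were higher and 1 lower (median 0.42). In the strain difference at 6 h, where 6 members were called lower, none of the sperm markers was called (median -0.08), and of the intestine markers 1 was called higher and 2 lower (median -0.03). In the strain difference at 20 h, 3 of 6 intestine markers were called higher (median 0.70), 5 of 9 of hypodermis and cuticle higher (median 0.85), 1 of 26 of sperm higher (median 0.92) and 1 of 12 of oocytes lower (median -0.54). CoCl2 itself went with marker changes. Of 6 intestine markers, 3 were higher and 3 lower with CoCl2 in pqm-1 worms at each time. In WT worms 1 was higher and 2 lower at 6 h (median 0.056), and 2 higher and 3 lower at 20 h (median -0.419). No sperm marker was called with CoCl2 in either strain at 6 h. At 20 h sperm markers were higher for 26 of 26 genes in pqm-1 worms (median 2.74) and 22 of 26 in WT worms (median 1.86). Oocyte markers were lower at 20 h for 9 of 12 in pqm-1 worms (median -0.53) and for none in WT worms. Markers of hypodermis and cuticle were higher for 6 of 9 in pqm-1 worms (median 1.13) and 3 of 9 in WT worms (median 0.23). Muscle markers were higher in pqm-1 than WT worms under CoCl2 for 6 of 6 genes at each time (medians 0.689 and 0.686). Untreated, 5 of 6 were higher at 6 h (median 0.625) and 1 of 6 at 20 h (median 0.693). Oocyte and eggshell markers were lower in pqm-1 worms under CoCl2 for 7 of 12 at 6 h and 8 of 12 at 20 h. Untreated, 1 of 12 was lower at 6 h (median -0.314) and none at 20 h (median -0.127). Neuron markers were higher under CoCl2 for 2 of 8 and 4 of 8, and untreated for none. Of all genes, 10.5% were called higher in untreated pqm-1 than WT worms at 6 h, and 4.33% in any direction at 20 h. Under CoCl2, 5.43% were lower in pqm-1 than WT worms at 6 h and 13.6% at 20 h. With CoCl2 against untreated at 20 h, 12.4% were lower in pqm-1 worms, and 8.99% higher and 6.93% lower in WT worms. For other marker counts no share is given here. The intestine, hypodermis, muscle and oocyte markers were above background in every channel. What part these cells had in the hrg values was not tested.

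Over the 24 arrays, which share conditions, hrg-4 and hrg-7 had the most alike ratios of any pair of members (Pearson r = 0.933), followed by hrg-1 and hrg-2 (0.886), hrg-4 and hrg-6 (0.809) and hrg-1 and hrg-3 (0.808). The least alike was hrg-3 with hrg-6 (0.048). The pair of hrg-4 and hrg-7 holds the members whose WT ratio changed sign between the times, and hrg-1, hrg-2 and hrg-3 those whose ratio stayed positive. Among 21323 other genes with a value on every array, the one most like the mean of hrg-1, hrg-2, hrg-3, hrg-4 and hrg-7 was gsto-1, an omega-class glutathione transferase (r = 0.943). Its CoCl2 means were -0.72 in pqm-1 and 1.25 in WT worms at 6 h, and 0.19 in pqm-1 and 0.86 in WT worms at 20 h. Its untreated mean, pqm-1 over WT, was 1.23 at 6 h. The next were ins-6, which encodes an insulin-like peptide (0.884), ztf-26 (0.874), zipt-2.3, of the zinc transporter family (0.870), Y54G11A.7 (0.869), nep-22, of the neprilysin family (0.858), F23D12.1 (0.857) and F07G6.10 (0.848). They were picked for likeness, so their values are a description, and the untreated mean at 6 h, pqm-1 over WT, was 1.02 for nep-22, 0.82 for Y54G11A.7 and 0.65 for F07G6.10, with the other 4 between -0.08 and 0.33.

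Genes of heme and iron metabolism outside the family were read in the same way. The share of all genes called higher with CoCl2 in pqm-1 worms is not given here. Counts of genes that rose in pqm-1 worms therefore stand without it, here and below. Of 4 genes of heme export and trafficking outside the members, 1 was called in each strain with CoCl2 at 6 h, gst-19, a glutathione transferase gene, which rose by 3.30 in pqm-1 worms (adjusted p = 1.07e-06) and by 3.20 in WT worms (adjusted p = 2.6e-06). At 20 h gst-19 rose by 3.33 in pqm-1 and 1.77 in WT worms. The strains differed by 1.56 (adjusted p = 0.00157, and 0.0231 with no offset in the background correction), a sign opposite to that of the members. The heme exporter mrp-5 was at -0.14 in pqm-1 and 0.56 in WT worms at 6 h (adjusted p = 0.635 and 0.0733), and at 20 h it was at 0.29 in pqm-1 worms and rose by 0.76 in WT worms (adjusted p = 0.00522, and 0.0572 without replicate 1 or 0.0416 without replicate 3), with strain differences of -0.76 at 6 h (adjusted p = 0.0794) and -0.47 at 20 h (adjusted p = 0.221). The trafficking gene hrg-9 was not called in any comparison, and its paralog hrg-10 was at -0.18 in pqm-1 worms at 20 h and fell by 0.54 in WT worms (adjusted p = 0.000191).

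Iron genes answered CoCl2 in both strains. Of 9 tested, 2 rose and 4 fell in pqm-1 worms at 6 h, against 2 and 3 in WT worms. At 20 h 3 rose and 4 fell in pqm-1 worms, against 2 and 3 in WT worms. With CoCl2 at 6 h, 4.83% of all genes were called lower in pqm-1 worms and 2.57% higher in WT worms. With CoCl2 at 20 h, 12.4% of all genes were called lower in pqm-1 worms, and 8.99% higher and 6.93% lower in WT worms. The divalent metal importer gene smf-3 rose by 2.52 in pqm-1 worms (adjusted p = 5.28e-06) and 3.82 in WT worms (adjusted p = 2.4e-07) at 6 h, and its strain difference of -1.68 had the members' sign (adjusted p = 0.00655). This call was lost without any 1 of its 6 arrays (adjusted p = 0.0104 to 0.0357) and with the other pair of comparisons (-1.3, adjusted p = 0.038). At 20 h its rise was 2.14 in pqm-1 and 2.13 in WT worms, with a strain difference of 0.01 (adjusted p = 0.989). The ferroportin gene fpn-1.1, for iron export, rose by 1.40 in pqm-1 and 1.74 in WT worms at 6 h, and its relative fpn-1.2 fell by 1.23 in pqm-1 worms, with -0.55 in WT worms (adjusted p = 0.0454). Of the ferritin genes, for iron storage, ftn-2 fell by 1.15 in pqm-1 worms and fell by 1.52 in WT worms at 6 h. Likewise ftn-1 fell by 0.88 in pqm-1 worms and fell by 0.72 in WT worms, although the WT call of ftn-1 (adjusted p = 0.00434) was lost without any 1 of its 3 arrays (adjusted p = 0.0187 to 0.057). The aconitase gene aco-1, homologous to the mammalian iron regulatory protein, fell by 0.75 in pqm-1 and 0.52 in WT worms, the WT call lost without replicate 2 (adjusted p = 0.0186).

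Of 32 globins 1 rose in pqm-1 worms, glb-15, by 0.66 (adjusted p = 0.00293, and 0.0253 without replicate 1 or 0.0382 without replicate 2), and none changed in WT worms. At 20 h 7 globins rose in pqm-1 and 4 in WT worms, where 8.99% of all genes were called higher. Of 24 other hemoproteins, 1 rose and 4 fell in pqm-1 worms at 6 h, in a comparison that called 4.83% of all genes lower, and none changed in WT worms. Those that fell were cytb-5.1, a cytochrome b5 gene, the peroxidase genes pxn-2 and skpo-3, and tdo-2, the gene of tryptophan 2,3-dioxygenase, a heme enzyme. The last, tdo-2, fell by 1.22 in pqm-1 worms (adjusted p = 4.84e-06), was at -0.08 in WT worms, and was higher in untreated pqm-1 than WT worms by 1.08 (adjusted p = 1.02e-05). Its strain difference, with the members' sign, was -1.19 at 6 h (adjusted p = 0.000557) and -0.80 at 20 h (adjusted p = 0.000106). The cytochrome c gene cyc-2.2 was higher in pqm-1 than WT worms by 1.92 under CoCl2 and 2.15 untreated at 6 h, and its strain difference of -0.22 did not pass (adjusted p = 0.669). None of the 3 genes of heme attachment and heme a synthesis changed in either strain at 6 h, and at 20 h 1 fell in pqm-1 worms. Medians of the globin, hemoprotein and attachment lists for CoCl2 at 6 h were between -0.08 and 0.05, close to the all-gene medians of -0.01 in pqm-1 and 0.00 in WT worms.

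The relatives of HRG-7 and the genes of the DBL-1 pathway were read in the same way. Of 13 other aspartic protease genes, 5 rose and 1 fell in pqm-1 worms at 6 h, and 4 rose and 1 fell in WT worms. In these comparisons 4.83% of all genes were called lower in pqm-1 worms and 2.57% higher in WT worms. The gene asp-12 was at 0.47 in pqm-1 worms (adjusted p = 0.0302) and rose by 1.79 in WT worms (adjusted p = 2.55e-06) at 6 h, then fell by 0.69 in pqm-1 and 1.31 in WT worms at 20 h. Its WT ratio changed sign as that of hrg-7 did, and its strain difference at 6 h was -1.17 (adjusted p = 0.00303, and up to 0.0196 when 1 of 4 of its 6 arrays was left out). In contrast, asp-14 rose by 2.94 in pqm-1 and 2.37 in WT worms and asp-8 by 1.55 and 1.22 in the same strains. The gene asp-13 fell by 2.60 in pqm-1 and 1.46 in WT worms. Its strain difference at 6 h, with the members' sign, was -1.40 (adjusted p = 0.000159). Of 9 genes of the DBL-1 pathway, 1 rose and 1 fell in pqm-1 worms at 6 h and none changed in WT worms. Those were sma-4, the co-Smad, which rose by 0.70 (adjusted p = 9.46e-07), and lon-2, a glypican that restrains the pathway, which fell by 0.40 (adjusted p = 0.000299). At 20 h 5 rose and 1 fell in pqm-1 worms, and 4 rose and 1 fell in WT worms. The WT comparison at 20 h called 8.99% of all genes higher and 6.93% lower, and that of pqm-1 worms called 12.4% lower.

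With median centering in place of loess, none of the strain differences called above for gst-19, smf-3, tdo-2, asp-12 and asp-13 passed (adjusted p = 0.0307 to 0.284), although their values kept their sign. That of smf-3 was also lost with no offset (adjusted p = 0.0135), and that of asp-12 on the scanner software's ratio (adjusted p = 0.0149).

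The metal-responsive cdr genes, named for cadmium, and regulators of metal and oxygen responses completed the lists. Of 5 cdr genes tested at 6 h, 2 rose and 1 fell in pqm-1 worms and 3 rose and 1 fell in WT worms, with cdr-4 up by 2.45 in pqm-1 and 2.1 in WT worms. The gene cdr-1 rose by 0.60 in pqm-1 and 1.70 in WT worms, and its strain difference of -0.49 lay at the threshold without passing it (adjusted p = 0.01), with -1.1 from the other pair of comparisons (adjusted p = 8.69e-05). Of 9 regulators, pqm-1 included, 2 rose in pqm-1 and 1 in WT worms at 6 h. Of all genes at 6 h, 4.83% were called lower in pqm-1 worms and 2.57% higher in WT worms. The hypoxia factor gene hif-1 was at -0.08 in both strains at 6 h (adjusted p = 0.401 in pqm-1 and 0.766 in WT worms), and the intestinal GATA factor gene elt-2 rose by 0.54 in pqm-1 worms (adjusted p = 0.00156, and 0.0109 without replicate 1 or 0.025 without replicate 2) and was at 0.16 in WT worms.

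**Figure D5:**
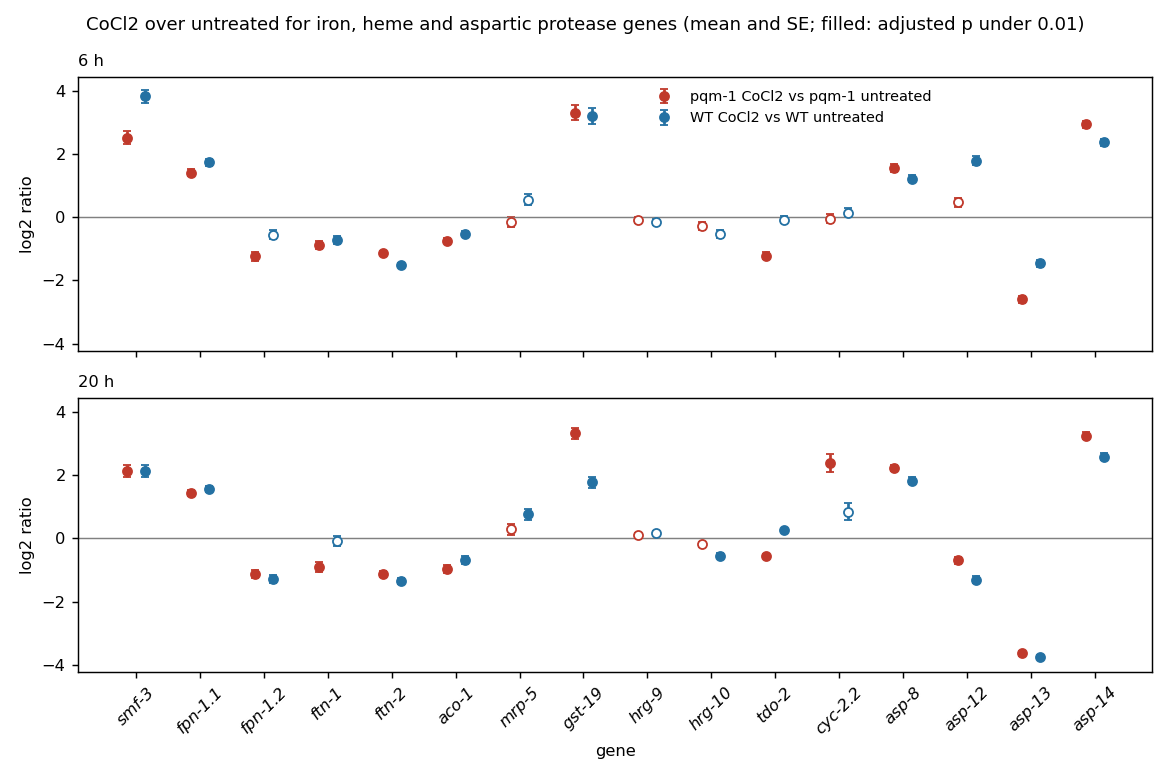
Log2 ratio of CoCl2-treated over untreated worms, mean and SE over 3 arrays, for 16 iron, heme and aspartic protease genes at 6 h and 20 h, pqm-1 worms left of WT worms and filled where the adjusted p was under 0.01. At 6 h smf-3 (2.52 in pqm-1, 3.82 in WT worms) and gst-19 (3.30 in pqm-1, 3.20 in WT worms) are high in both strains, whereas tdo-2 is low in pqm-1 worms (-1.22) and near 0 in WT worms (-0.08).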

How the data were processed

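Median spot intensities were used as deposited, before normalisation, per the file headers from the scanner software Feature Extraction 12.0.2.2. Its log10 ratio and the deposited series table of log2 ratios served as alternatives. Whole-worm RNA was extracted with Trizol and RNeasy columns. Background was corrected by normexp (offset 50), channels were normalised by loess within each array, control spots and outlier-flagged spots were left out, and probes of a gene were averaged. A probe was kept at a time if, for 1 comparison or more, each array showed it well above background in either channel. Of 43603 probes, 34513 were matched to a RefSeq gene. The 12 arrays of a time were fitted together with limma 3.58.1 in R 4.3.3 (lmFit and eBayes, 8 residual degrees of freedom), with Benjamini-Hochberg adjustment and a threshold of 0.01. The methods name SAM, which 3 arrays give few permutations, and limma took its place. The code was tested on simulated data.

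The 7 members and all gene lists were chosen with earlier results of these data known. Members were given no p. Named besides them were genes of the pathway lists called in at least 1 comparison (75 of 114 on the array), hrg-9 and hif-1, which were not called and were added after their values were seen, and the 8 genes most correlated with the mean of hrg-1, hrg-2, hrg-3, hrg-4 and hrg-7. Single-channel levels were set on a common scale by Aquantile normalisation across arrays. The alternatives covered background correction, normalisation, dyes, filter, threshold, block terms, the pair of comparisons and replicates left out. Promoter motifs were not analysed here, and P-values cover the spread between these arrays only.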

Additional observations from a re-analysis of the deposited data

Results flagged for a closer look

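Several members moved in opposite directions in 2 groups on every array, and no test of those differences is given as support, since the members were chosen for such contrasts. The calls counted in the report describe that choice, and the differences between the times were not tested. Between CoCl2 in pqm-1 and CoCl2 in WT worms at 6 h, the log2 effects differed by -2.51 for hrg-1, -2.06 for hrg-2, -2.74 for hrg-4 and -3.57 for hrg-7, and at 20 h by -3.09 for hrg-2. Between the strains with CoCl2 and the strains untreated, the pqm-1 over WT ratios at 6 h differed by -2.41 for hrg-1, -2.12 for hrg-2, -1.93 for hrg-3, -3.31 for hrg-4, -1.12 for hrg-6 and -3.60 for hrg-7. The same differences at 20 h were -1.38 for hrg-1, -3.43 for hrg-2, -1.92 for hrg-3 and -1.32 for hrg-7. Between 20 h and 6 h, the CoCl2 effect in WT worms differed by -2.02 for hrg-4 and -2.19 for hrg-7, negative on all arrays at 20 h and positive on all at 6 h.

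Pathway genes were picked out where the strain difference itself passed the threshold in limma. At 6 h it was -1.68 for smf-3 (adjusted p = 0.00655), 0.46 for ftn-2 (adjusted p = 0.00838), -1.17 for asp-12 (adjusted p = 0.00303), -1.40 for asp-13 (adjusted p = 0.000159), 0.81 for asp-14 (adjusted p = 0.00861), -1.19 for tdo-2 (adjusted p = 0.000557) and 0.67 for sma-4 (adjusted p = 0.00019). At 20 h it was 1.56 for gst-19 (adjusted p = 0.00157) and -0.80 for tdo-2 (adjusted p = 0.000106). Each group had 3 arrays, and the calls of ftn-2 and smf-3 were lost without any 1 of the 6 arrays behind them. The call of asp-14 was lost without any 1 of 5 of its arrays, all but replicate 1 of pqm-1 CoCl2 against WT CoCl2. That of asp-12 was lost without replicate 2 or 3 of the CoCl2-treated strains, or without replicate 1 or 2 of the untreated strains. With no offset the calls of smf-3 (adjusted p = 0.0135), ftn-2 (0.057), asp-14 (0.0233) and gst-19 (0.0231) were lost. On the scanner software's ratio those of ftn-2 (0.0447), asp-12 (0.0149) and asp-14 (0.0861) were lost. From the other pair of comparisons those of smf-3 (0.038), ftn-2 (0.0387) and asp-14 (0.0809) were lost. With median centering in place of loess none of the calls in this paragraph passed: the adjusted p was 0.284 for smf-3, 0.923 for ftn-2, 0.0796 for asp-12, 0.158 for asp-13, 0.568 for asp-14, 0.441 for sma-4, 0.0307 for gst-19, and 0.182 and 0.227 for tdo-2 at 6 h and 20 h.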

How the results depend on the processing

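If the dyes are read from the source names, no member was called in any CoCl2 comparison, in the untreated strains at 6 h or in either strain difference (0 in each), and 17 member values turned: with CoCl2 in pqm-1 worms hrg-1 0.286, hrg-2 0.471, hrg-4 0.922, hrg-6 0.473 and hrg-7 0.567 at 6 h and hrg-2 0.0316 at 20 h; pqm-1 over WT under CoCl2 hrg-1 0.159, hrg-3 1.11, hrg-4 0.328, hrg-6 0.134 and hrg-7 0.0483 at 6 h and hrg-1 0.42, hrg-2 1.05, hrg-3 0.53 and hrg-7 0.0631 at 20 h; strain difference at 6 h hrg-3 0.809 and hrg-6 0.0941. With the fields, replicates of a group correlate at r = 0.678 to 0.961 over genes. Median centering in place of loess lowered the members called at 6 h to 3 in pqm-1 worms, 2 in WT worms, 1 between treated strains and 1 in the strain difference, at 20 h to 2 between treated strains and 1 in the strain difference, and the pathway genes called to 49, against 75, and it turned tdo-2 in WT worms at 20 h to -0.244 (adjusted p = 0.39); the cause was not tested. In the untreated strains at 20 h, 3 members were called at 0.05 or from those arrays alone, 2 (hrg-1 and hrg-7) in a loop model of the 4 conditions, and 1 (hrg-7) with a dye term. With replicate as a block 1 (hrg-7) was called there, and no other count moved by over 1.5 times. Same-numbered arrays deviated together at r = -0.67 to 0.406 at 6 h and -0.342 to 0.418 at 20 h. All 3 numbers were over 0.1 only in 2 pairs of comparisons at 6 h, both sharing a condition on the same side of the ratio. Same-numbered arrays also had the same dye order in these 2 pairs and the opposite order in every other pair at 6 h. Dye order and shared condition thus cannot be told apart in these 2 pairs. The 2 comparisons that hold WT CoCl2 on opposite sides had r = -0.419, -0.345 and -0.4 at 6 h. Pairs that share no condition were also negative at 6 h (-0.211 to -0.67). A pairing by number cannot be decided from these values, and the main fits took the arrays as independent. Leaving out 1 array gave, at 6 h, 4 to 5 members called in pqm-1 worms, 3 to 3 in WT worms, 4 to 5 between treated and 4 to 5 between untreated strains, and 4 to 6 in the strain difference; at 20 h 3 to 4, 4 to 5, 3 to 4, 0 to 0 and 2 to 4 in the same order. Members with a lower WT effect at 20 h than at 6 h were 5, and 5 to 6 without 1 array. The fixed slide block could be fitted only for the strain difference at 20 h. Alternatives for the time difference and the pathway genes were chosen after seeing the data. Dim spots limit hrg-5 and, in untreated WT worms at 6 h, hrg-3.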

Other observations

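Other genes that carry an hrg symbol were on the array and belong to none of the lists above, and they are named after their values were seen. With CoCl2, hrg-11.4 was lower in both strains at both times: -0.69 in pqm-1 worms (adjusted p = 5.69e-05) and -0.46 in WT worms (adjusted p = 0.00298) at 6 h, and -1.13 in pqm-1 worms (adjusted p = 2.42e-08) and -0.83 in WT worms (adjusted p = 4.12e-07) at 20 h. The gene hrg-11.3 was at -0.60 in pqm-1 worms (adjusted p = 0.00755) and -0.75 in WT worms (adjusted p = 0.00377) at 6 h, and at -0.58 in pqm-1 worms (adjusted p = 0.0211) and -1.38 in WT worms (adjusted p = 0.000171) at 20 h. The gene hrg-13 was at -0.37 in pqm-1 worms (adjusted p = 0.00252) and -0.08 in WT worms (adjusted p = 0.845) at 6 h, and at -0.37 in pqm-1 worms (adjusted p = 0.00286) and -0.23 in WT worms (adjusted p = 0.0567) at 20 h. The gene hrg-14 was at -0.37 in pqm-1 worms (adjusted p = 0.0106) and 0.08 in WT worms (adjusted p = 0.921) at 6 h, and at -0.67 in pqm-1 worms (adjusted p = 0.000115) and -0.39 in WT worms (adjusted p = 0.0103) at 20 h. Between the strains under CoCl2 at 6 h, hrg-14 was at -0.49 in pqm-1 over WT worms (adjusted p = 0.000895) and hrg-11.4 at 0.35 (adjusted p = 0.00522), and at 20 h hrg-11.3 was at 1.1 (adjusted p = 0.000393) and hrg-11.4 at 0.29 (adjusted p = 0.00085). Between the untreated strains hrg-11.4 was at 0.45 at 6 h (adjusted p = 0.00136) and 0.71 at 20 h (adjusted p = 1.32e-05). None of these 4 genes had a strain difference in the CoCl2 effect past the threshold at either time (adjusted p = 0.0227 to 0.883).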
